A study of Mus musculus with 2 samples.

Results

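Ribosome production was examined through 35 genes whose proteins build ribosomes in the nucleolus or form RNA polymerase I, in B cells of mice that carry or lack miR-155. The 35 genes were listed by name, with no threshold on their values, out of 18193 genes that the arrays measured. The list, and the sizes 0.2 and 0.5 used below, were chosen with earlier results of these data known. Each gene is given by its brightest probe set (mean of both arrays) among those annotated to that gene alone. All 35 were found, and all 35 passed the filter on low values, a mean log2 intensity of at least 6.71, which is the median over non-control probe sets. In all, 10717 genes passed it and are called expressed here.

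The series holds 2 Affymetrix 3′ expression arrays, 1 labelled mir155 KO and 1 labelled mir155 WT, both from B cells on a C57 background (from Jackson Laboratory). The design text calls the cells cultured and activated. The growth protocol instead describes haematopoietic progenitors of male mice kept for 6 days with G-CSF (granulocyte colony-stimulating factor) and SCF (stem cell factor). Both cultures received cycloheximide, a blocker of translation elongation, at 100 ug/ml for the last 8 min. The titles and genotype entries gave the assignment used here and the source names gave the opposite one, so each array is called "labelled knockout" or "labelled wild-type". Should the source names be the correct ones, each difference below changes sign when read as knockout minus wild-type.

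The labels were checked against the targeted gene. Mir155hg, the transcript from which miR-155 is cut, read 10.88 (log2 intensity) where the label says knockout and 6.63 where it says wild-type, a difference of 4.25 that goes against the label. This was the largest difference of all expressed genes, and 6.63 lies below the level for expressed. Its direction is the one that the source names give. The position of the Mir155hg probe set relative to the deletion was not examined, so the reading does not settle which names are correct. The microRNA itself, in its RefSeq sequence (GRCm38.p6, chr16:84714143-84714165, plus strand), is shown because it is what the genotypes differ in, with its seed, bases 2 to 8, in capitals.
mmu-miR-155-5p: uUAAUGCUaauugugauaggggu

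With 1 array per label there is no spread between cultures and no test, so differences are described by their size and no p-value is given. All differences are log2 intensities on the array labelled knockout minus those on the array labelled wild-type. The arrays had been brought to nearly the same distribution before deposit, so a difference in total RNA per cell would not be seen. Over the 10717 expressed genes the difference had a median of 0.03 and an SD of 0.19. Where a gene had at least 2 expressed probe sets (4906 genes), the brightest pair typically disagreed in its difference by 0.084 (the median), and the 95th percentile of this disagreement was 0.31. It is the only technical yardstick here. All 10 measured B cell markers were expressed. Of 11 neutrophil and precursor markers on the array 9 were below the level for expressed on both arrays, among them Elane, Mpo and S100a8, and of 6 progenitor markers 5 were, among them Kit and Cd34. Of 9 macrophage and monocyte markers 6 were expressed, of 6 dendritic cell markers 3 and of 6 T cell markers 4.

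As background, ribosomes are assembled mainly in the nucleolus, where RNA polymerase I copies the ribosomal RNA genes into one long precursor. Small nucleolar ribonucleoproteins (snoRNPs) modify that precursor, and large assemblies of helper proteins cut and fold it into the 40S and 60S subunits. Lymphocytes enlarge their nucleoli and raise this output when they are activated to grow and divide, and the transcription factor MYC is a known driver of many of these genes.

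Nearly all of the 35 genes were slightly higher on the array labelled knockout. The difference was above 0 for 33 genes (94.3%), against 56.9% of all expressed genes. It was at or above 0.2, or 1.15-fold, for 18 genes (51.4%), against 12.6% of all expressed genes. None was lower by at least 0.2, where 9.54% of all expressed genes were, and none was higher by at least 0.5, where 0.681% were. The median of the 35 differences was 0.20 (1.15-fold) and the range ran from -0.07 to 0.41. In the highest 10% of all expressed differences there were 15 of the 35 genes. The shift was thus common to most of the genes and small for each, and for most single genes it lay within the 95th percentile of the disagreement between probe sets.

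**Figure D1:**
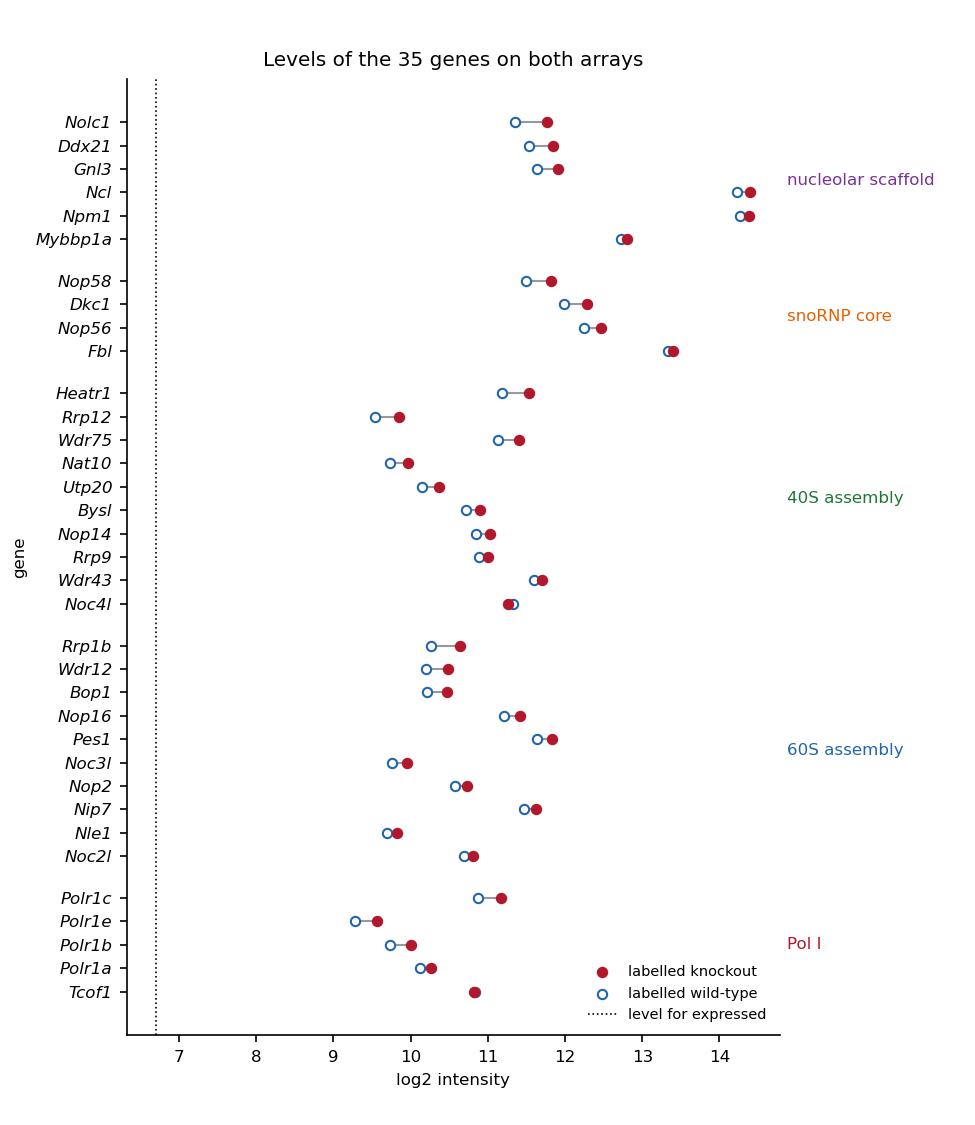
Log2 intensity of the 35 genes (x axis), 1 array per label, with the array labelled knockout filled red and the other open blue, grouped by role and ordered by difference within each role. The red point lies to the right of the blue one for 33 genes and to the left for Noc4l and Tcof1, and all points lie between 9.29 and 14.4, above the dotted line at 6.71.

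All 35 genes were in the upper quartile of levels (8.84 or above) of non-control probe sets. Brighter genes as a whole leaned the same way in sign. Of the 6306 genes in that quartile 62.7% had a difference above 0, against 56.9% of all expressed genes. Differences of 0.2 or more were not more frequent there, at 11.1% against 12.6%. The counts for the 35 genes, 33 and 18, are the same under either background.

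Among the scaffold and multifunctional proteins of the nucleolus, all 6 genes were higher, with a median of 0.23. Nolc1 encodes the phosphoprotein Nopp140, a chaperone of snoRNPs. It read 11.77 (labelled knockout) against 11.35 (labelled wild-type), the order in which all pairs of levels below are given. This difference of 0.41 (1.33-fold) was the largest of the 35 and ranked 183 among all expressed genes, and the gene's other probe sets lay at 0.23 or above. Ddx21, an RNA helicase that works in ribosomal RNA transcription and processing, read 11.85 and 11.53, a difference of 0.32. Gnl3, the GTPase nucleostemin, which is abundant in dividing cells, read 11.92 and 11.63, a difference of 0.28. These 3 genes stood above 0.2, and the other 3 of the group did not.

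Those 3 were Ncl, Npm1 and Mybbp1a. Ncl encodes nucleolin, and its level was 14.40 against 14.23, a difference of 0.17. Its 4 expressed probe sets ran from 0.16 to 0.34, all higher. Npm1 encodes nucleophosmin, a chaperone of the outer nucleolar layer, and read 14.38 against 14.26, a difference of 0.12. Processed copies of Npm1 exist in the genome, and whether its probes also read them was not examined. Mybbp1a, a nucleolar protein that has been described as a restraint on RNA polymerase I, read 12.80 against 12.73, a difference of 0.07. Its second probe set differed by 0.17, so the size depended on the probe set while the direction did not.

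All 4 genes for core proteins of snoRNPs, the RNA-guided particles that modify ribosomal RNA, were higher, with a median of 0.25. The box C/D particles carry 2′-O-methyl groups to the RNA and hold fibrillarin (Fbl), Nop56 and Nop58. Nop58 read 11.82 against 11.50, a difference of 0.32. Nop56 read 12.46 against 12.25, a difference of 0.21. Fbl, the methyltransferase itself, read 13.40 against 13.33, a difference of 0.06, and its other probe set gave 0.10. The genes for the proteins of this one particle thus spread from 0.06 to 0.32. Dkc1, dyskerin, the pseudouridine synthase of box H/ACA particles, read 12.28 against 11.99, a difference of 0.30, with 3 expressed probe sets from 0.24 to 0.39.

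Of the 10 genes of the small subunit processome and 40S assembly, 9 were higher, with a median of 0.20. Heatr1, a large scaffold protein that also acts in RNA polymerase I transcription, was the highest, at 11.53 against 11.19, a difference of 0.34. Its other expressed probe sets gave smaller values, down to 0.11. Wdr75 and Wdr43 encode further parts of the same early-binding UTP-A complex. Wdr75 read 11.41 against 11.13 (0.28). Wdr43 read 11.70 against 11.60 (0.10), while its second probe set gave 0.26. All 3 genes of this complex were therefore higher, from 0.10 to 0.34, with sizes that shifted between probe sets.

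Rrp12, a HEAT-repeat protein needed for export of both subunits, read 9.85 against 9.54, a difference of 0.32 from a single probe set. Nat10, the acetyltransferase that places acetylcytidine on 18S RNA, read 9.96 against 9.73 (0.23). Its dim second probe set, below the level for expressed, gave -0.17. Utp20, a very large processome protein, read 10.37 against 10.15 (0.22). Each of these stood above 0.2.

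Bysl, bystin, which acts late in 40S maturation, read 10.91 against 10.72 (0.18). Nop14, a stable partner of Noc4l, read 11.03 against 10.85 (0.17). Rrp9, the U3 snoRNA-binding protein, read 11.00 against 10.89 (0.11). These were higher by less than 0.2. Noc4l was the lowest of all 35, at 11.26 against 11.33, a difference of -0.07, within the 0.084 by which probe sets of a gene typically disagreed. Its 4 expressed probe sets ran from -0.07 to 0.22, so its direction rested on the probe set chosen.

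All 10 genes of 60S assembly were higher, with a median of 0.19 and a lowest value of 0.12. Rrp1b, a nucleolar protein of 60S processing, read 10.64 against 10.27, a difference of 0.37, the second largest of the 35, and its 3 probe sets lay between 0.30 and 0.37. Pes1, Bop1 and Wdr12 form the PeBoW complex, which is needed to process the RNA of the large subunit. Wdr12 read 10.48 against 10.21 (0.28). Bop1 read 10.48 against 10.21 (0.27). Pes1 read 11.83 against 11.64 (0.19). The 3 subunit genes spanned only 0.19 to 0.28, although second probe sets of Bop1 and Pes1 gave only 0.08 each.

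The rest of the 60S group lay at or below the common median. Nop16, a MYC-responsive nucleolar protein, read 11.42 against 11.21 (0.20). Noc3l and Noc2l, which work as partners in pre-60S particles, read 9.95 against 9.76 (0.19) and 10.81 against 10.69 (0.12). Nop2, a methyltransferase of 28S RNA that is used as a proliferation antigen, read 10.73 against 10.58 (0.16). Nip7, a small pre-ribosome protein, read 11.62 against 11.47 (0.15), and its second, dimmer probe set gave 0.37. Nle1, an assembly factor of the pre-60S particle, read 9.82 against 9.69 (0.13). No gene of this group read lower on the array labelled knockout with any expressed probe set.

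Among RNA polymerase I genes, the 4 subunit genes were higher and the cofactor gene was not, and the median of the 5 was 0.27. Polr1c, a subunit shared with RNA polymerase III, read 11.18 against 10.87 (0.31), and its second probe set gave 0.12. Polr1e, a subunit that acts in initiation and elongation, read 9.56 against 9.29 (0.28). Polr1b, the second largest subunit, read 10.005 against 9.740 (0.27). Polr1a, the largest subunit, read 10.26 against 10.12 (0.14), with 3 expressed probe sets between 0.09 and 0.14. With plain _at probe sets only, the median of the 5 genes was 0.14 in place of 0.27, because Polr1c then took its other probe set.

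Tcof1 encodes treacle, a nucleolar phosphoprotein related to Nopp140 that helps RNA polymerase I work. It read 10.83 against 10.84, a difference of -0.01, and its 3 expressed probe sets ran from -0.01 to 0.08. The related gene Nolc1 was at the top of the 35 and Tcof1 near the bottom, and all 3 probe sets of Nolc1 (0.23 to 0.41) lay above all 3 of Tcof1.

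**Figure D2:**
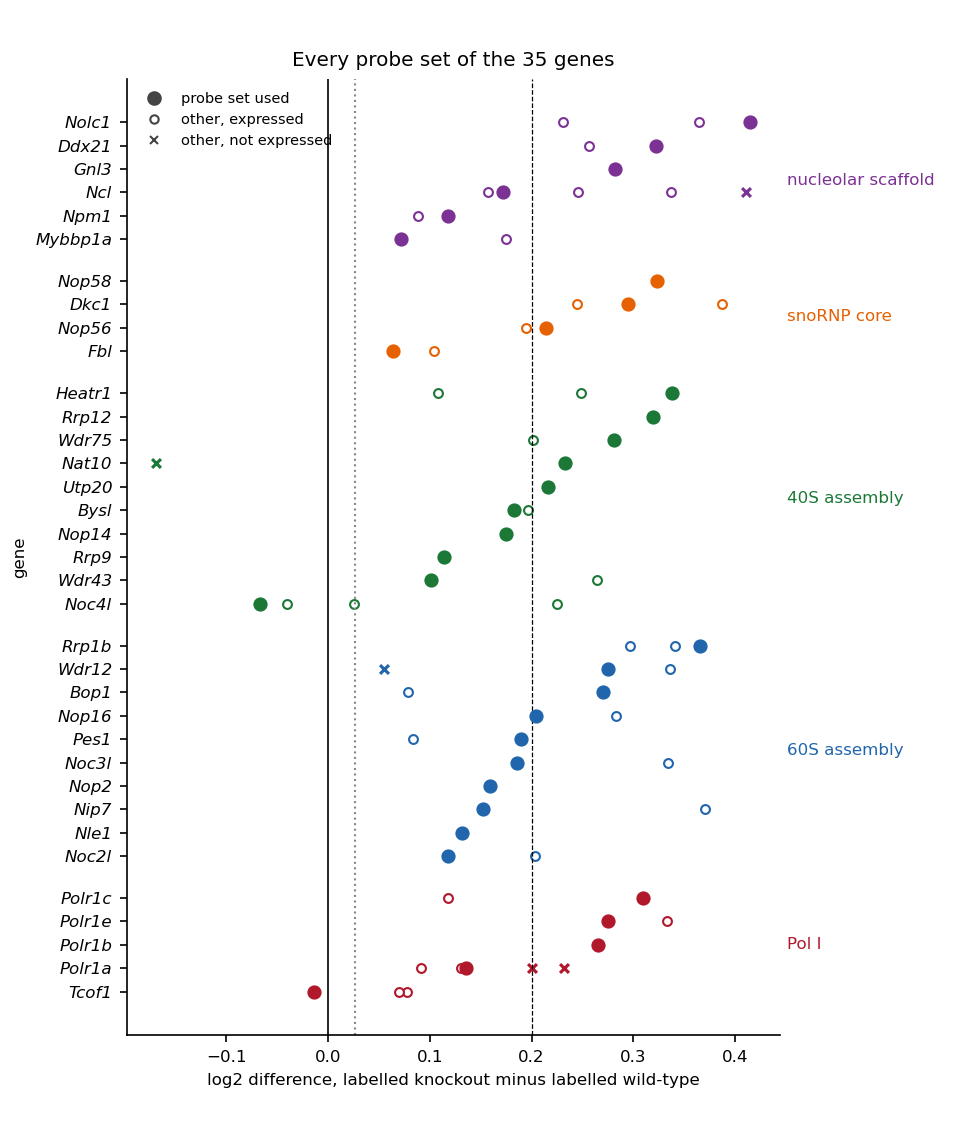
Log2 difference (x axis) of every singly annotated probe set of the 35 genes, coloured by role. Large filled points are the probe sets used, open points are other expressed ones and crosses are those below the level for expressed. The solid line is 0, the dotted line the median of all expressed genes (0.03) and the dashed line 0.2. Of the 70 expressed probe sets 67 lie to the right of 0, and the exceptions belong to Noc4l and Tcof1.

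Probe sets that the choice of 1 per gene left out gave the same picture. The 35 genes had 75 singly annotated probe sets, of which 70 were expressed, and of these 67 were higher and 3 lower, with a median of 0.20. Among the 35 expressed probe sets that were not used for a gene, 34 were higher, with a median of 0.20. Among the 25 genes read by more than 1 expressed probe set, every such probe set was higher for 23. The brightest pair of a gene disagreed by a median of 0.079 over these 25 genes and by at most 0.22. That disagreement exceeded the gene's own difference for 4 of them. Probe sets of 1 gene read the same RNA on the same arrays, so they check the probes and not the cultures.

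**Figure D3:**
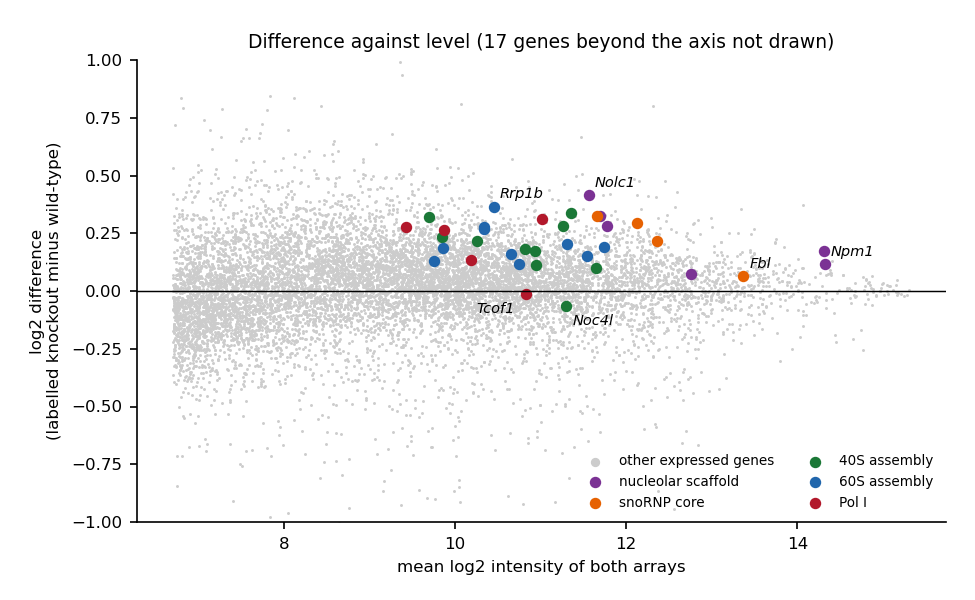
Log2 difference (y axis) against the mean log2 intensity of both arrays (x axis) for the 35 genes, coloured by role, and all other expressed genes in grey. The 35 genes lie in a band from -0.07 to 0.41 inside the grey cloud, and 17 other genes that differ by more than 1 are not drawn.

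Other genes of the pathway, taken from lists of named factors, leaned the same way by smaller amounts. Over 121 further expressed genes of ribosome biogenesis, 105 were higher (86.8%), 28 were higher by 0.2 or more (23.1%) and 1 was lower by 0.2 or more, with a median of 0.12. The shares of all expressed genes were 56.9% (higher), 12.6% (higher by 0.2 or more) and 9.54% (lower by 0.2 or more). Among 12 further snoRNP and snoRNP assembly genes 11 were higher (median 0.17). Naf1 (0.30) and Shq1 (0.29), both assembly factors of box H/ACA particles, were the highest, and Pih1d1 (-0.01) and Znhit3 (0.04) the lowest. Among 46 further large subunit genes 42 were higher (median 0.12), with the helicase gene Ddx31 (0.32) and Urb2 (0.30) at the top and Sbds (-0.11) and Ddx55 (-0.06) at the bottom. Sbds encodes the factor that frees the late 60S subunit for translation.

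Among 42 further small subunit genes 35 were higher (median 0.13). The highest were Nol10 (0.38) and Rcl1 (0.28). The lowest were Bud23, an 18S RNA methyltransferase gene, at 9.64 against 10.15 (-0.51, single probe set), and Rrp36 (-0.17). The 3 UTP-A genes among them, chosen after their values were seen, were higher too, with Utp4 at 0.23, Nol11 at 0.19 and Utp15 at 0.09. Of 8 further RNA polymerase I genes 6 were higher (median 0.07). Taf1d, a subunit of the promoter selectivity factor SL1, read 9.85 against 9.48 (0.38), and all 6 of its expressed probe sets were higher. Ubtf, the architectural factor UBF of ribosomal RNA genes, read 11.29 against 11.04 (0.25), and its second probe set gave 0.38. Taf1c, another SL1 subunit (-0.07), and the terminator factor gene Ttf1 (-0.03) were the lowest. RNA exosome genes, which trim precursors, had 11 of 13 higher but a median of only 0.05, from Exosc2 (-0.11) and Exosc3 (-0.01) to Mphosph6 (0.22) and the nuclease gene Dis3 (0.26).

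Genes of the ribosome's own proteins, 44 of 78 listed ones measured, showed little of this shift as a list. Of 43 expressed cytosolic ribosomal protein genes 30 were higher, 3 of them by 0.2 or more, and the median was 0.02, close to the 0.03 of all expressed genes. Fau (-0.04) and Rpl27a (-0.03) were the lowest, and Rpl14 (0.24) and Rpl37 (0.26) the highest. Their median level was 14.87 (labelled knockout) and 14.84 (labelled wild-type), near the top of the scale, and the part of this high level in their small differences was not tested. The 35 of them with a mean level of 14 or more, a division made after values were seen, had differences from -0.04 to 0.06 (median 0.01). The 8 with a mean level under 14 had differences from -0.03 to 0.26, with a median of 0.14. Whether the probe sets of these 8 read the main transcript of their gene was not examined. The 3 that were higher by 0.2 or more, Rpl14, Rps6 and Rpl37, read 9.22, 11.56 and 12.38 on the array labelled knockout.

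The other nuclear polymerases were nearer to the background than the RNA polymerase I subunits. RNA polymerase II subunit genes had 8 of 10 higher and a median of 0.06, from Polr2i (-0.07) and Polr2c (-0.01) to Polr2f (0.16) and Polr2h (0.21). RNA polymerase III subunit genes had 7 of 10 higher and a median of 0.11, from Polr3f (-0.08) and Crcp (-0.06) to Polr3k (0.23). Polr3g, the subunit that distinguishes a form found in growing cells, was the highest at 8.28 against 7.70 (0.58, single probe set). In the RNA polymerase II list 1 gene was higher by 0.2 or more (10%), and in the RNA polymerase III list 3 were (30%). Of all expressed genes 12.6% were higher by that size, and 56.9% were higher at all. Polr1c (0.31), though shared with RNA polymerase III, was counted with RNA polymerase I only. The further RNA polymerase I gene Polr1d differed by 0.13. With plain _at probe sets the medians were 0.14 (RNA polymerase I), 0.06 (II) and 0.07 (III). No difference between these lists was tested, since the design has 1 array per label.

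**Figure D4:**
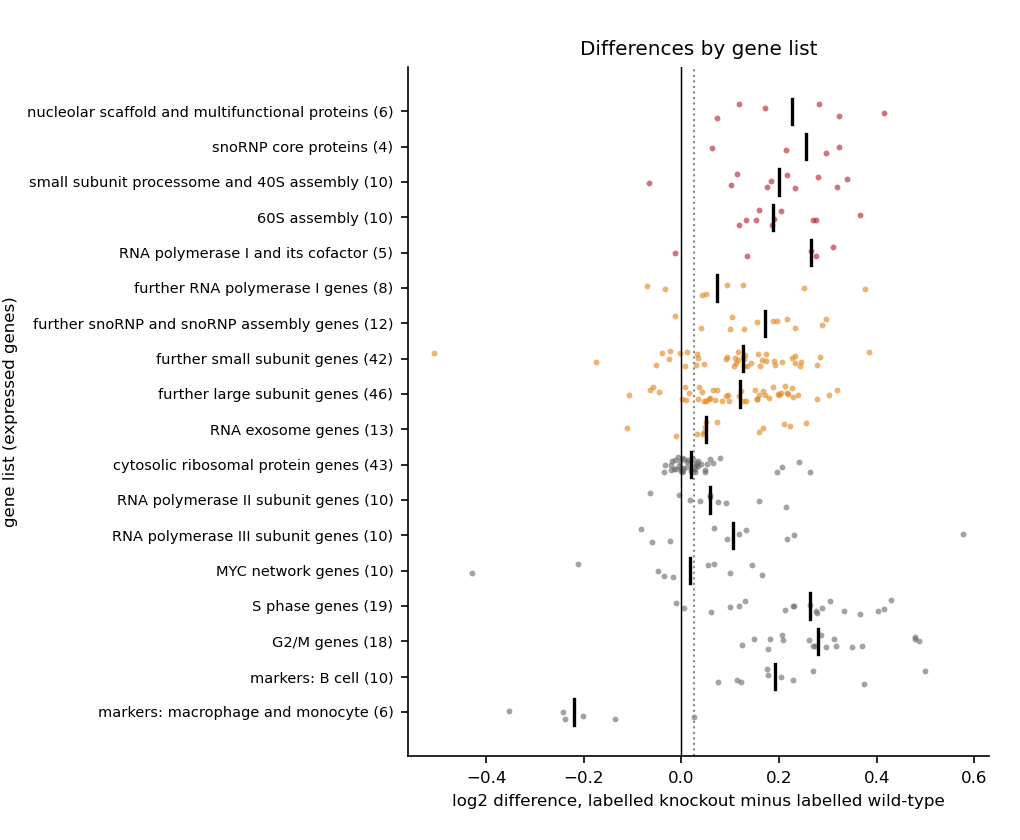
Log2 difference (x axis) of each expressed gene, by gene list (y axis, with the number of expressed genes), as points with the list's median as a black bar. Red lists make up the 35 genes, orange lists are further ribosome biogenesis genes and grey lists other genes, and the dotted line is the median of all expressed genes (0.03). The medians run from 0.19 to 0.27 in the red lists, 0.05 to 0.17 in the orange ones and 0.02 for ribosomal proteins, against 0.26 and 0.28 for S phase and G2/M genes.

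Genes of cell division and B cell markers moved with the 35 genes, where 56.9% of all expressed genes were higher. Of 19 expressed S phase genes 18 were higher, with a median of 0.26, from Mcm2 (-0.01) and Fen1 (0.01) to Mcm3 (0.41) and Mcm7 (0.43). All 18 expressed G2/M genes were higher, with a median of 0.28, from Kif20a (0.12) and Cdc20 (0.15) to Birc5 (0.48) and Aurkb (0.49). All 10 measured B cell markers were higher, with a median of 0.19, and their summed linear intensity was 57137 (labelled knockout) and 47718 (labelled wild-type). Of 9 measured macrophage and monocyte markers 8 were lower, with sums of 926 and 1054. Of the 9, C1qa, Marco and Mrc1 were below the level for expressed on both arrays, and the 6 expressed ones had median levels of 6.88 and 7.16. Dendritic cell markers (5 of 6 lower) summed to 2045 and 2384, with Itgax, Siglech and Xcr1 below that level. The expressed ones were Zbtb46 (-0.44), Flt3 (-0.27) and Batf3 (0.37). Neutrophil markers (7 of 11 lower) summed to 907 and 909, T cell markers (4 of 6 lower) to 871 and 876 and progenitor markers (5 of 6 lower) to 429 and 469. Without the filter 48% of the 18193 measured genes were higher, against 56.9% of the expressed ones, so genes below the filter leaned lower. After a loess curve of difference on level was subtracted, expressed markers had medians of -0.15 (macrophage and monocyte), -0.33 (dendritic cell), 0.01 (neutrophil) and 0.16 (B cell). Before it these were -0.22, -0.27, -0.06 and 0.19. The part of dividing cells and of cell composition in the shift of the 35 genes was not tested, and in bulk RNA a larger share of a cell type and more RNA per cell cannot be told apart. Control probe sets for RNA integrity, at the 3′ and 5′ ends of Gapdh and beta-actin, differed by -0.03 to 0.02.

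MYC network genes did not share a direction. Myc itself read 12.29 against 12.12, a difference of 0.17 and the highest of the list, followed by its partner Max (0.15). Mxi1 (-0.43) and Mxd1 (-0.21), which encode MAX-binding proteins that oppose MYC, were the lowest, and 5 of 10 were higher with a median of 0.02. The sign of this median depended on the setting, since it was -0.10 with the mean of all probe sets (9 expressed genes), -0.03 with plain probe sets (8 genes), -0.02 with quantile normalization and -0.015 after a loess curve was subtracted. It was 0.02 with no filter and 0.08 with a filter at the upper quartile (6 genes). Both expressed probe sets of Mxi1 were lower, with differences of -0.43 and -0.57.

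Promoter sequences were examined because the 35 genes leaned one way together. RefSeq promoter windows of 300 bases (250 before the gene's start and 50 after it, GRCm38.p6) were matched by symbol for 30 of the 35 genes, as 34 windows. The E-box CACGTG, the site bound by MYC with MAX and by related factors, reads the same on both strands. It was present for 6 of the 30 genes (20%), against 12% of 8684 expressed genes and 8.09% of all 27025 genes with a window. In the further ribosome biogenesis lists other than the exosome the E-box was present for 16 of 92 genes (17.4%), and among cytosolic ribosomal protein genes for 6 of 57 (10.5%). For these 6 genes, 30 bases around the E-box are shown on the gene's strand, with the motif in capitals.
Nop2: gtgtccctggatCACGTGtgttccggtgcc
Pes1: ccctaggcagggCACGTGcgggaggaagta
Wdr43: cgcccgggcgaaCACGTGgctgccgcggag
Nle1: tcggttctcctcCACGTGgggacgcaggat
Utp20: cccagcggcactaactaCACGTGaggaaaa
Mybbp1a: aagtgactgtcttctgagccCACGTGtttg

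These stretches lie at chr6:125131811-125131840 (Nop2), chr11:3963965-3963994 (Pes1), chr17:71616220-71616249 (Wdr43), chr11:82908355-82908384 (Nle1), chr10:88826765-88826794 (Utp20) and chr11:72441347-72441376 (Mybbp1a). Nle1 and Utp20 are on the minus strand and the others on the plus strand. Counting the gene's start as base 1, the E-box began 60 bases before the start in Nop2 and at bases 3, 18, 24, 38 and 41 in Pes1, Wdr43, Nle1, Utp20 and Mybbp1a. It thus lay just downstream of the start in 5 of the 6. The 6 genes with an E-box had differences from 0.07 to 0.22 with a median of 0.15, and the 24 with a window but no E-box had a median of 0.25, from -0.07 to 0.41.

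The motif CCGGAAG, the core bound by ETS family factors, was searched on both strands and does not overlap the E-box. It was present for 8 of the 30 genes (26.7%), against 21.1% of the expressed genes and 9.93% of all genes with a window. In the same further lists it was present for 46 of 92 genes (50%), and among cytosolic ribosomal protein genes for 24 of 57 (42.1%). The 8 genes with it had a median difference of 0.23, and the 22 without it one of 0.21. The 250 bases before the start are shown for Nolc1 (chr19:46075597-46075846, plus strand) and Heatr1 (chr13:12395125-12395374, plus strand), the highest genes of the scaffold and 40S groups, with this motif in capitals near the 3′ end of each.
Nolc1: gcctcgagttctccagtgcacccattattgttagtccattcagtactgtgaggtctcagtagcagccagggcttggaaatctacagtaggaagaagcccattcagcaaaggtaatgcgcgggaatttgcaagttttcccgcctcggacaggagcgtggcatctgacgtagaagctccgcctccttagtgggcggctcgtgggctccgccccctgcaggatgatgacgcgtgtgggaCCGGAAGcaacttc
Heatr1: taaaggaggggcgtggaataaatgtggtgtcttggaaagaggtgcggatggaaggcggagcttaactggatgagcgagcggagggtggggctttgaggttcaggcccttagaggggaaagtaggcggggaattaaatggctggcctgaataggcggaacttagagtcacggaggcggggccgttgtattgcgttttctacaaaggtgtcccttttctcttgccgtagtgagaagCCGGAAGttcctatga

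A match describes the letters of a window and is not a binding site, and a window without a match says only that these letters are not in it. For the 30 genes with a window, the ranges of the difference with and without each motif overlapped.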

How the data were processed

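RNA of 2 samples was labelled with the Affymetrix 3′ IVT Express kit, per the labels' protocols. The deposited table holds log2 intensities of 45101 probe sets (64 of them controls). The log2 unit was read from the values, and how the authors summarised and normalized them is not given in the sources used here. Once sorted, the columns differed by no more than 0.063 at any rank. A platform annotation table named 1 gene for 34945 probe sets, of which 34741 matched RefSeq genes of GRCm38.p6 by Entrez number with 0 symbols changed. Listed symbols that no such probe set names were not analysed here. The 35 genes, the lists and the sizes 0.2 and 0.5 were chosen with earlier results of these data known, and the ETS motif and the grouping into complexes after values were seen. Named genes are the 35, the 2 highest and 2 lowest expressed genes of each other list, and Mir155hg, and others are marked in the text or shown as markers or subunits. With 1 array per label no test or p-value was computed, and precision is limited by the number of arrays. The computation was run on simulated data with known shifts, which checks the code only and not the noise between these 2 arrays. The alternatives tried were averaging all probe sets of a gene, plain _at probe sets, quantile normalization, a subtracted loess curve (span 0.3), no filter and a filter at the upper quartile. Tables were handled in NumPy 2.4.6 and pandas 2.3.3 under Python 3.11.15, loess was run in statsmodels 0.14.6, and matplotlib 3.10.9 drew the figures.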

Additional observations from a re-analysis of the deposited data

How the results depend on the processing

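The 6 alternatives kept the direction of the 35 genes' median, which ran from 0.17 (loess curve subtracted) to 0.21 (mean of all probe sets). Under quantile normalization it was 0.18, and with plain _at probe sets, which covered 33 of the genes, 0.19. The count of genes above 0 was 31 of 33 with plain probe sets (57.4% of all expressed genes), 35 of 35 with the mean of all probe sets (59.1%) and 33 of 35 under the others. The count at or above 0.2 was 14 with quantile normalization or a loess curve, against 9.17% and 9.79% of all expressed genes, 15 with plain probe sets (13.2%) and 19 with the mean (11.7%). Both other filters could change no value of the 35 genes, since all of them pass either filter. Quantile normalization and loess moved the median of all expressed genes from 0.03 to 0, and the share of these genes that were higher to 49.2% and 49.9%. The median of the 5 RNA polymerase I genes was 0.14 with plain probe sets in place of 0.27, since Polr1c then took a probe set at 0.12. Of 138 single-gene values under the 4 alternatives that could change them 9 moved by more than 0.084, the typical disagreement of probe sets, and 0 reversed from a size of 0.2 or more. Noc4l (0.04) and Tcof1 turned above 0 with the mean of all probe sets. No paired analysis was possible because each label has 1 array. No array could be left out for the same reason.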
